A study of Rattus norvegicus with 44 samples.

Results

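Elavl2, Elavl3 and Elavl4, which encode the neuronal ELAVL (Hu) proteins, Rbfox3, which encodes the nuclear protein NeuN, and Nova1 were followed through the differentiation of 5 rat neural precursor clones. Members were the probe sets for which the platform annotation gave 1 of these 5 genes and no other. This gave 9 of 24183 probe sets, for 4 of the 12749 genes measured: 3 probe sets for Elavl2, 2 for Elavl3, 1 for Elavl4 and 3 for Rbfox3. No probe set carried Nova1, which was not analysed here. The array platform was Affymetrix, and each of 44 arrays held total RNA of 1 culture.

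The clones were described by the labels as a precursor of GABAergic neurons (Ge6), a precursor of interneurons (L2.2), multipotential precursors (L2.3 and Ctx8) and a nonneuronal clone (Ge2). All were grown on poly-lysine and laminin with FGF2, the growth factor that keeps such cells dividing (day 0). They were then held for 3 or 7 days without FGF2, in B27 medium with 0.5% fetal bovine serum, which starts differentiation. The 15 groups of clone and day had 3 sister cultures each, except L2.2 at day 0 with 2, its replicates 1 and 3. Each clone was a single line, so a difference between clones is a difference between single lines, and p-values measured the spread between sister cultures. Strain and age were not used here.

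The neuronal ELAVL proteins bind U-rich and AU-rich stretches of mRNA, lengthen the life of the transcripts they hold and shift their splicing, and they appear as precursors leave the cell cycle. Elavl2 encodes HuB, Elavl3 encodes HuC and Elavl4 encodes HuD. The related Elavl1 (HuR) is made in most cell types. NeuN binds UGCAUG in introns and steers splicing, and it is the standard nuclear marker of maturing neurons, absent from glia. NOVA proteins bind YCAY clusters and control splicing at inhibitory and other synapses.

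In the GRCr8 assembly (RefSeq), Elavl2 lay at chr5:111076705-111202341, Elavl4 at chr5:130285418-130429106, Elavl3 at chr8:28823120-28859395 and Rbfox3 at chr10:104218940-104655863. The 250 bases before the annotated start of the 3 ELAVL genes are shown, from RefSeq's GRCr8 sequence. They were chosen because all 3 genes were called higher at day 7 than at day 0 in Ge6, L2.2 and L2.3. In Ctx8 only Elavl3 and Elavl4 were called higher, and in Ge2 none of the 3 was. All 3 are on the minus strand, written 5′ to 3′, with matches to the searched motifs in capitals. Both strands were searched for CAGCTG and CAGATG (E-boxes, read by proneural bHLH factors), TAATTA (a homeodomain core) and both parts of RE1, the element read by REST, a repressor of neuronal genes. The left part of RE1 was searched as TTCAGCACC.
Elavl2, chr5:111202288-111202537: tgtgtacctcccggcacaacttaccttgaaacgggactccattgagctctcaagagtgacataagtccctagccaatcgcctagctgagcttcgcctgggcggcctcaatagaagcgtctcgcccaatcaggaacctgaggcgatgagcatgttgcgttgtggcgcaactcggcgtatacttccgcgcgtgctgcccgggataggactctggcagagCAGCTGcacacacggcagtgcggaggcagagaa
Elavl3, chr8:28859014-28859263: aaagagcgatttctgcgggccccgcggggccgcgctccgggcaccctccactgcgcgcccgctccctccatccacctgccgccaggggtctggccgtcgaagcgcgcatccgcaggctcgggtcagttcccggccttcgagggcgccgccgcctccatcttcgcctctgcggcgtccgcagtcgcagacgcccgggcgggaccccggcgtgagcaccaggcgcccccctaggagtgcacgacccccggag
Elavl4, chr5:130367664-130367913: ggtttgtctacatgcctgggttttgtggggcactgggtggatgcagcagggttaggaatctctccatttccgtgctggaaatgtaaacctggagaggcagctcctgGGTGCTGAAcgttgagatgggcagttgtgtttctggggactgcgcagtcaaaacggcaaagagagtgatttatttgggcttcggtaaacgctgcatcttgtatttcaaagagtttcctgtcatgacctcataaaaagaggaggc
The Elavl2 window held 1 CAGCTG, as did 12.0% of the 33469 promoters of the same length. The Elavl4 window held 1 GGTGCTGAA, the reverse of the left part of RE1, as did 0.305% of promoters. The right part was not in the window. The windows of Elavl3 and Elavl4 lie inside the spans of their genes and that of Elavl2 overlaps its gene in part, since the genes have other starts farther upstream. In the Elavl3 window none of the searched letters was found, and its GC content was 75.6%, against 58.4% for Elavl2, 49.6% for Elavl4 and a median of 51.2% over all promoters. These matches describe the letters only.

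Values below are deposited intensities on a linear scale, given in the order of the replicates, and differences are log2 of the day or clone named first minus the other, with the standard error (SE) of a limma fit over all arrays. A difference was called at a Benjamini-Hochberg adjusted p under 0.05. Probe sets with a group mean under 16.305, the 40th percentile of all values, are called dim, and a fold from a dim level is understated or unsure. In these bulk cultures fewer cells of a type and less RNA per cell cannot be told apart. Intensities of different probe sets are not compared with each other.

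**Figure D1:**
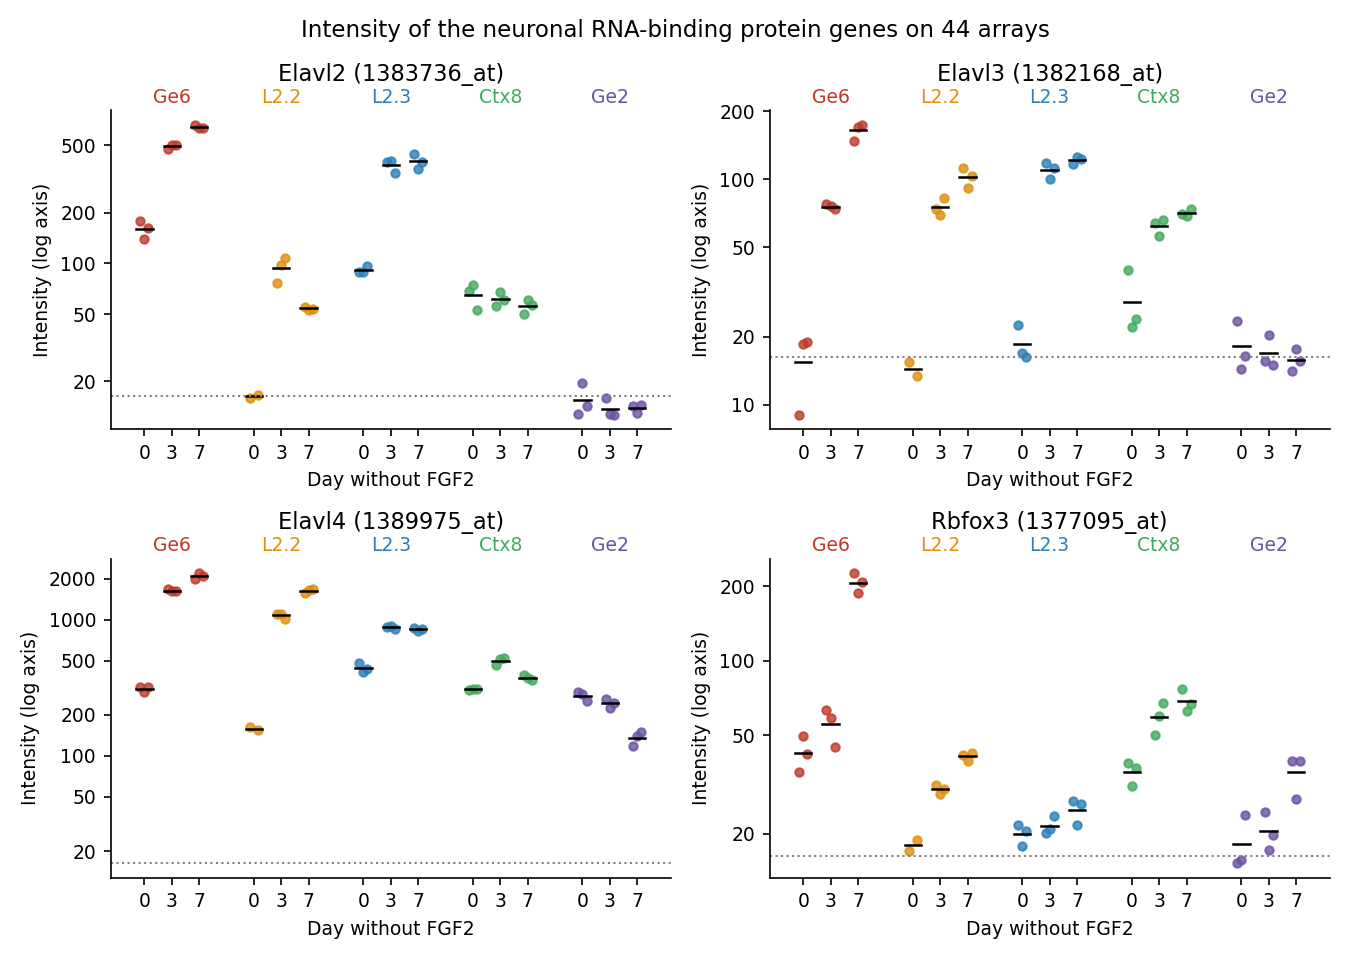
Intensity (log axis) of the brightest probe set of each gene in every culture, by clone and day without FGF2; points are cultures, black bars are group means and the dotted line is the dim limit of 16.305. Ge6 at day 7 is the highest group for all 4 genes, while in Ge2 Elavl2 and Elavl3 stay near the dotted line and Elavl4 is lowest at day 7.

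All 4 genes rose in Ge6 and in L2.2 by day 7, and 3 of 4 rose in L2.3 and in Ctx8. In Ge2 only Rbfox3 was called higher at day 7, and Elavl4 was called lower. Over all probe sets, 25.7% were called higher at day 7 in Ge6, 20% in L2.2, 19.2% in L2.3, 23.5% in Ctx8 and 26.9% in Ge2. The share called lower in Ge2 was 27.5%. By day 3 the same counts held in Ge6, L2.2, L2.3 and Ctx8 (4, 4, 3 and 3 genes higher, beside 21.6%, 19.3%, 18.7% and 24% of all probe sets). In Ge2 at day 3 no member gene was called higher and Elavl4 was called lower, beside 28.2% and 26.2% of all probe sets.

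Elavl4 (HuD) was measured by 1389975_at, which was above the dim limit in all 15 groups. In Ge6 its intensities were 323, 293 and 321 at day 0, 1672, 1619.8 and 1611 at day 3, and 1999.6, 2194 and 2091 at day 7. In L2.2 they were 162 and 156 at day 0, then 1105, 1104 and 1017, then 1571, 1651 and 1685. No array of one day overlapped another in either clone. The difference at day 7 was 2.75 ± 0.07 (SE; adjusted p = 2.92e-27) in Ge6 and 3.36 ± 0.08 (adjusted p = 9.92e-28) in L2.2. The L2.2 rise was larger than the Ge6 rise by 0.62, as the difference of changes, Ge6 minus L2.2, was -0.62 ± 0.11 (adjusted p = 2.06e-05). L2.2 started from the lower level: at day 0 it was below Ge2 by a log2 difference of -0.80 (adjusted p = 3.86e-10).

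The multipotential clones showed smaller changes of Elavl4. L2.3 had 483, 416 and 435 at day 0, 891, 900.0 and 856 at day 3, and 868, 827 and 854 at day 7. Its day 7 difference was 0.94 ± 0.07 (adjusted p = 2.38e-13). It had the highest day 0 level of the 5 clones, above Ge6 (Ge6 minus L2.3 = -0.51, adjusted p = 5.08e-07), and stayed level after day 3, with a day 7 minus day 3 difference of -0.05 (adjusted p = 0.744). Ctx8 had 307, 309 and 308 at day 0, 467, 513 and 519.7 at day 3, and 393, 373 and 360.0 at day 7. Its values peaked at day 3 and then fell without overlap, by a difference of -0.41 (adjusted p = 5.6e-05). At day 7 the Ctx8 level was still called above day 0, by 0.28 (adjusted p = 0.00124), but this call was lost when arrays were shifted to one median (0.12, adjusted p = 0.143).

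In Ge2 Elavl4 fell. Its intensities were 297, 283 and 253 at day 0, 263, 226 and 244 at day 3, and 118, 140.0 and 149 at day 7. The day 0 and day 3 arrays overlapped, and all day 7 arrays lay below them. The day 7 difference was -1.04 (adjusted p = 5.44e-15). The day 3 difference of -0.18 (adjusted p = 0.0329) was lost when Ge2 day 0 replicate 1 (-0.13, adjusted p = 0.176) or replicate 2 (-0.17, adjusted p = 0.0921) was left out, or Ge2 day 3 replicate 2 (-0.13, adjusted p = 0.196) or replicate 3 (-0.18, adjusted p = 0.0632). No Elavl4 difference between Ge6, Ctx8 and Ge2 was called at day 0. Ge6 minus Ctx8 was 0.02 (adjusted p = 0.893) and Ge6 minus Ge2 was 0.17 (adjusted p = 0.0752). All Ctx8 arrays of day 0 lay above those of Ge2. Without Ge2 day 0 replicate 1, Ge6 minus Ge2 (0.22, adjusted p = 0.0379) and Ctx8 minus Ge2 (0.20, adjusted p = 0.0447) passed.

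Elavl3 (HuC), by 1382168_at, rose in every clone but Ge2, from levels near the dim limit except in Ctx8. In Ge6 the intensities were 9.03, 18.6 and 19.0 at day 0, 77.4, 75.9 and 73.7 at day 3, and 148, 171 and 174 at day 7. In L2.2 they were 15.5 and 13.5, then 74.1, 69.1 and 82.2, then 112, 91.4 and 103. In L2.3 they were 22.6, 16.9 and 16.4, then 118, 100.1 and 113, then 116, 125 and 122. In each of these clones all day 3 and day 7 arrays lay above all day 0 arrays, and in L2.3 the arrays of days 3 and 7 overlapped. Replicate 1 of Ge6 at day 0 was below its sister cultures. The day 7 differences were 3.48 ± 0.20 in Ge6 (adjusted p = 8.24e-18), 2.82 ± 0.22 in L2.2 (adjusted p = 1.87e-13) and 2.72 ± 0.20 in L2.3 (adjusted p = 2.36e-14). Day 0 means were dim in Ge6 and L2.2, so these folds depend on values near background.

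Ctx8 held Elavl3 at 39.5, 22.0 and 24.0 at day 0, 63.9, 56.0 and 66.2 at day 3, and 70.2, 68.8 and 74.0 at day 7. By this probe set these day 0 cultures were higher than those of Ge6, with a Ge6 minus Ctx8 difference of -0.90 (adjusted p = 0.00029). Without Ge6 day 0 replicate 1 the difference was -0.55 (adjusted p = 0.0141). The second Elavl3 probe set did not call it, and its arrays overlapped (11.7 to 35.4 in Ge6, 20.6 to 31.3 in Ctx8). The rise of Ctx8 to day 7 was 1.37 ± 0.20 (adjusted p = 1.9e-07). In Ge2 all 9 arrays lay between 14.1 and 23.5, and the day 7 difference was -0.17 (adjusted p = 0.499). At day 7 Ge6 was above L2.2 by 0.69 (adjusted p = 0.00442) and above Ctx8 by 1.21. Its difference from L2.3, 0.43, had an adjusted p of 0.0676. With all arrays, the second probe set did not call the difference of Ge6 from L2.2.

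All 4 genes were called different between the multipotential clones L2.3 and Ctx8 at days 3 and 7, with 3 higher and 1 lower in L2.3. In these comparisons 37.0% and 40.7% of all probe sets were called. The second Elavl3 probe set did not call the day 7 difference with all arrays. Its day 3 call was lost without Ctx8 day 3 replicate 3 (0.72, adjusted p = 0.0848). Elavl2 (HuB), by 1383736_at, was called higher at day 7 than at day 0 in L2.3 and not in Ctx8. In Ge6 its intensities were 177, 139 and 162 at day 0, 478, 502 and 500.4 at day 3, and 664, 634 and 634 at day 7. In L2.3 they were 88.8, 88.6 and 96.2, then 398, 404 and 344, then 443, 364 and 401. Ge6 and L2.3 were the 2 clones with Elavl2 well above the other clones at days 3 and 7. Their day 7 changes, 2.02 ± 0.13 (adjusted p = 2.4e-16) and 2.14 ± 0.13 (adjusted p = 1.37e-16), had a difference of -0.12 ± 0.18 (adjusted p = 0.66).

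In Ctx8 Elavl2 was 68.9, 74.1 and 52.7 at day 0, 55.5, 68.0 and 61.0 at day 3, and 50.2, 60.6 and 57.0 at day 7. The days overlapped, and the day 7 difference was -0.21 (adjusted p = 0.186). It passed in the downward direction without Ctx8 day 0 replicate 3 (-0.36, adjusted p = 0.0271), after quantile normalization (-0.33, adjusted p = 0.0353) and with arrays shifted to one median (-0.38, adjusted p = 0.0105). At day 0 L2.3 was already above Ctx8, by 0.50 (adjusted p = 0.00723). That call was lost without Ctx8 day 0 replicate 3 (0.35, adjusted p = 0.111). At day 7 the L2.3 mean was 403 ± 40 (SD, n = 3) against 56.0 ± 5.3 (SD, n = 3) in Ctx8. In Ge2 all 9 arrays lay between 12.7 and 19.6.

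L2.2 was the clone in which Elavl2 rose and then fell. It had 15.9 and 16.6 at day 0, 76.8, 97.8 and 107 at day 3, and 55.2, 53.3 and 53.8 at day 7. The 3 days did not overlap. The day 3 minus day 0 difference was 2.51 ± 0.14 (adjusted p = 5.39e-17) and the day 7 minus day 3 difference was -0.78 ± 0.13 (adjusted p = 1.73e-05). The day 0 mean of 16.29 was dim, so the fold to day 3 depends on values near background. The other bright Elavl2 probe set gave -0.43 for the later step (adjusted p = 0.0171), a call lost without L2.2 day 3 replicate 2 (-0.34, adjusted p = 0.122) or L2.2 day 7 replicate 2 (-0.31, adjusted p = 0.15). At day 0 L2.2 stood beside Ge2, with a difference of 0.09 (adjusted p = 0.719), and both means were dim. At day 7 L2.2 stood beside Ctx8, with -0.04 (adjusted p = 0.821).

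Rbfox3 (NeuN), by 1377095_at, rose late in Ge6. Its intensities there were 35.7, 49.8 and 42.2 at day 0, 63.5, 58.6 and 44.9 at day 3, and 226, 188 and 207 at day 7. The first 2 days overlapped, while every day 7 array was well above both. The day 7 minus day 3 difference was 1.91 ± 0.16 (adjusted p = 1.52e-12), and the second probe set gave 2.35. The day 3 minus day 0 difference was 0.38 ± 0.16 (adjusted p = 0.0442). This call was lost without Ge6 day 0 replicate 1 (0.26, adjusted p = 0.243) or replicate 3 (0.39, adjusted p = 0.083), and without Ge6 day 3 replicate 1 (0.28, adjusted p = 0.213) or replicate 2 (0.34, adjusted p = 0.133).

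The other clones held Rbfox3 at lower levels at day 7. Ctx8 had 38.6, 31.2 and 36.8 at day 0, 50.3, 59.8 and 67.6 at day 3, and 76.8, 63.0 and 66.7 at day 7. L2.2 had 17.1 and 19.0, then 31.6, 29.1 and 30.3, then 41.6, 39.5 and 42.4. In both, days 3 and 7 lay above day 0, and the day 7 differences were 0.95 ± 0.16 (adjusted p = 2.23e-06) in Ctx8 and 1.19 ± 0.17 (adjusted p = 4.07e-07) in L2.2. The day 3 call of L2.2, 0.75 (adjusted p = 0.000533), was not made by the second probe set (0.35, adjusted p = 0.0885). L2.3 had 21.7, 17.9 and 20.5, then 20.3, 20.9 and 23.5, then 27.1, 21.8 and 26.3. Its days overlapped in part, and its day 7 difference was 0.32 ± 0.16 (adjusted p = 0.0985), although its ELAVL genes had risen.

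Rbfox3 also rose in the nonneuronal clone. Ge2 had 15.2, 15.7 and 23.9 at day 0, 24.4, 17.2 and 19.8 at day 3, and 39.5, 27.7 and 39.5 at day 7. All day 7 arrays were above all earlier ones. The day 7 difference was 0.97 ± 0.16 (adjusted p = 1.28e-06), and the second probe set also gave 0.97 (adjusted p = 4.18e-07). At day 7 the L2.2 minus Ge2 difference was 0.23 (adjusted p = 0.246), and L2.3 was below Ge2 by a difference of -0.49 (adjusted p = 0.00872). That call was lost without Ge2 day 7 replicate 1 (-0.40, adjusted p = 0.057) or replicate 3 (-0.40, adjusted p = 0.0573), or without L2.3 day 7 replicate 2 (-0.39, adjusted p = 0.0657). Ge2 day 7 had astrocyte markers summing to 13585 to 14519 and mesenchymal markers to 2359 to 2682, against 81.1 to 84.8 for the latter in Ge6; their part in the Rbfox3 signal was not tested.

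**Figure D2:**
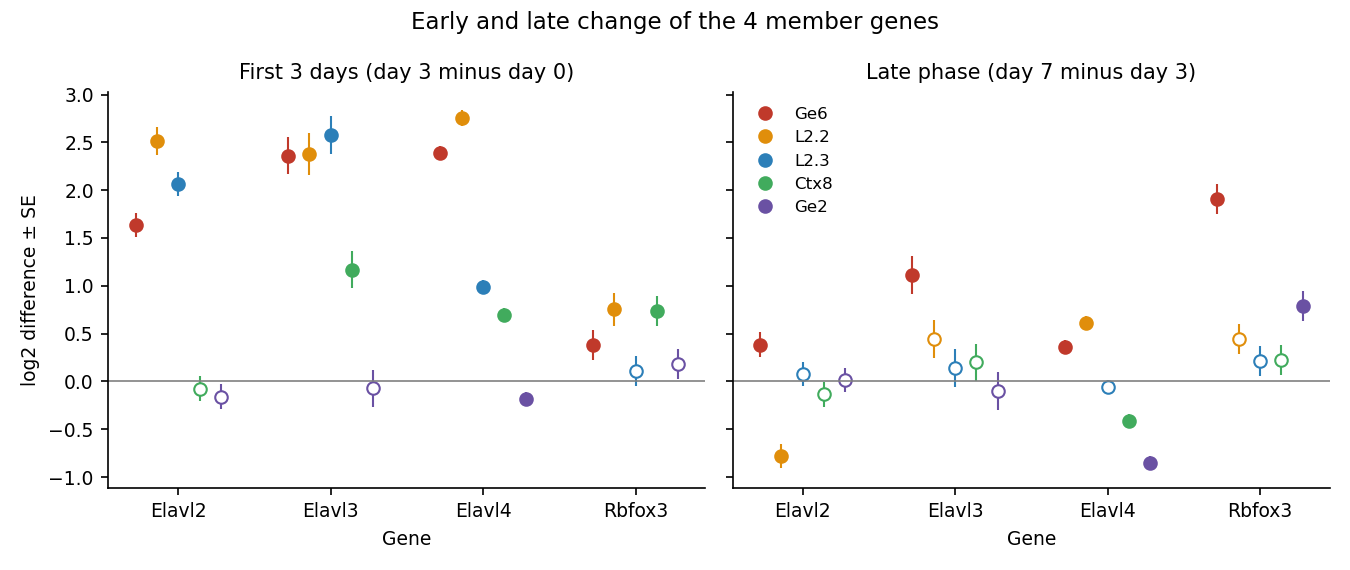
Change of each gene in log2 (± SE) over the first 3 days (left) and from day 3 to day 7 (right), by clone; filled points passed an adjusted p of 0.05 and open points did not. In Ge6 the steps of the 3 ELAVL genes are 1.64 to 2.39 on the left and 0.36 to 1.12 on the right, and those of Rbfox3 are 0.38 and 1.91.

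The timing of the rise differed between the ELAVL genes and Rbfox3 in Ge6. The day 3 change was 81.0% of the day 7 change in log2 for Elavl2, 67.9% for Elavl3 and 87.0% for Elavl4, against 16.8% for Rbfox3. In L2.3 it was 96.5% for Elavl2 and 94.8% for Elavl3. In L2.2 it was 84.3% for Elavl3, 82.0% for Elavl4 and 63.1% for Rbfox3, and in Ctx8 it was 85.5% for Elavl3 and 76.7% for Rbfox3. The share for Rbfox3 in Ge2, 18.8%, rested on single cultures, going from 4.91% without Ge2 day 3 replicate 1 to 33.2% without Ge2 day 0 replicate 3. It was also lower without Ge2 day 0 replicate 1 (7.9%) or replicate 2, and higher without Ge2 day 3 replicate 2 (31.0%). Without Ge2 day 0 replicate 3 the day 3 change of Rbfox3 there also passed (0.39, adjusted p = 0.0358). From day 3 to day 7 all 4 genes were called higher in Ge6, where 17.6% of all probe sets were. For Elavl2 this step of 0.38 (adjusted p = 0.0149) was not called by the second bright probe set (0.30, adjusted p = 0.0673) or with arrays shifted to one median (0.27, adjusted p = 0.0775). In L2.3 none of the 4 was called in either direction in that step by limma, where 12.7% of all probe sets were, and none had an unadjusted p under 0.05. In L2.2 Elavl4 was called higher and Elavl2 lower (7.47% and 7.62% of all probe sets), in Ctx8 Elavl4 lower (9.44%), and in Ge2 Rbfox3 higher and Elavl4 lower (7.1% and 7.22%).

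The changes from day 0 were unequal between clones for all 4 genes by the F test at day 7, with adjusted p from 6.06e-28 for Elavl4 to 2.37e-08 for Rbfox3, beside 65% of all probe sets (60.7% at day 3). Set against the single clones, the day 7 change of Ge6 was larger than that of Ctx8 and of Ge2 for all 4 genes, with differences from 1.32 to 3.78; 21.6% and 23.1% of all probe sets were called higher there. Against L2.2, where 36.8% of all probe sets were called in either direction, the difference was 1.10 ± 0.23 for Rbfox3 (adjusted p = 0.000232), 0.66 ± 0.29 for Elavl3 (adjusted p = 0.08) and 0.29 ± 0.19 for Elavl2 (adjusted p = 0.265). Against L2.3 (44.5%) it was 1.97 ± 0.22 for Rbfox3 (adjusted p = 1.78e-09) and 1.81 ± 0.10 for Elavl4 (adjusted p = 6.79e-17). The Elavl3 difference from L2.3, 0.76 ± 0.28 (adjusted p = 0.0241), was lost without Ge6 day 0 replicate 1 (0.40, adjusted p = 0.179), Ge6 day 7 replicate 3 (0.71, adjusted p = 0.0518) or L2.3 day 0 replicate 1 (0.61, adjusted p = 0.0897). These comparisons share the Ge6 cultures.

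At single days, the clones differed in most pairs. Of 30 pairs of clones over the 3 days, 28 were called for Elavl2, 27 for Elavl4, 23 for Rbfox3 and 18 for Elavl3, where the 10 pairs together had 33.1% of all probe sets called at day 0, 43.4% at day 3 and 45.3% at day 7. Elavl3 had 3 of 10 pairs called at day 0, 7 at day 3 and 8 at day 7, and Elavl2 had 9 of 10 already at day 0. At day 7 Ge6 exceeded the next clone by 0.68 for Elavl2 (L2.3, adjusted p = 2.45e-05), 0.36 for Elavl4 (L2.2, adjusted p = 0.000126) and 1.59 for Rbfox3 (Ctx8, adjusted p = 4.12e-11).

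Ranked over the 15 groups, the members shared the top place but not the order below it. For Elavl2 the order ran from Ge6 at day 7 and day 3 through L2.3 at days 7 and 3 to Ge6 at day 0, with Ge2 and L2.2 at day 0 last. Elavl4 ran from Ge6 at day 7 through L2.2 at day 7 and Ge6 at day 3 to L2.2 at day 3, with Ge2 at day 7 last. For Elavl3 the groups after Ge6 at day 7 were L2.3 at days 7 and 3 and L2.2 at day 7, which overlapped in sequence. For Rbfox3, the 8 groups after Ge6 at day 7, from Ctx8 at day 7 to L2.2 at day 3, each overlapped with the next. Of the 14 neighbouring pairs in each order, arrays overlapped in 8 for Elavl2, 10 for Elavl3, 5 for Elavl4 and 12 for Rbfox3. Overlap of arrays is no test: Elavl4 in Ge2 at days 0 and 3 and Rbfox3 in Ge6 at days 0 and 3 were overlapping neighbours with called differences, as given above.

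**Figure D3:**
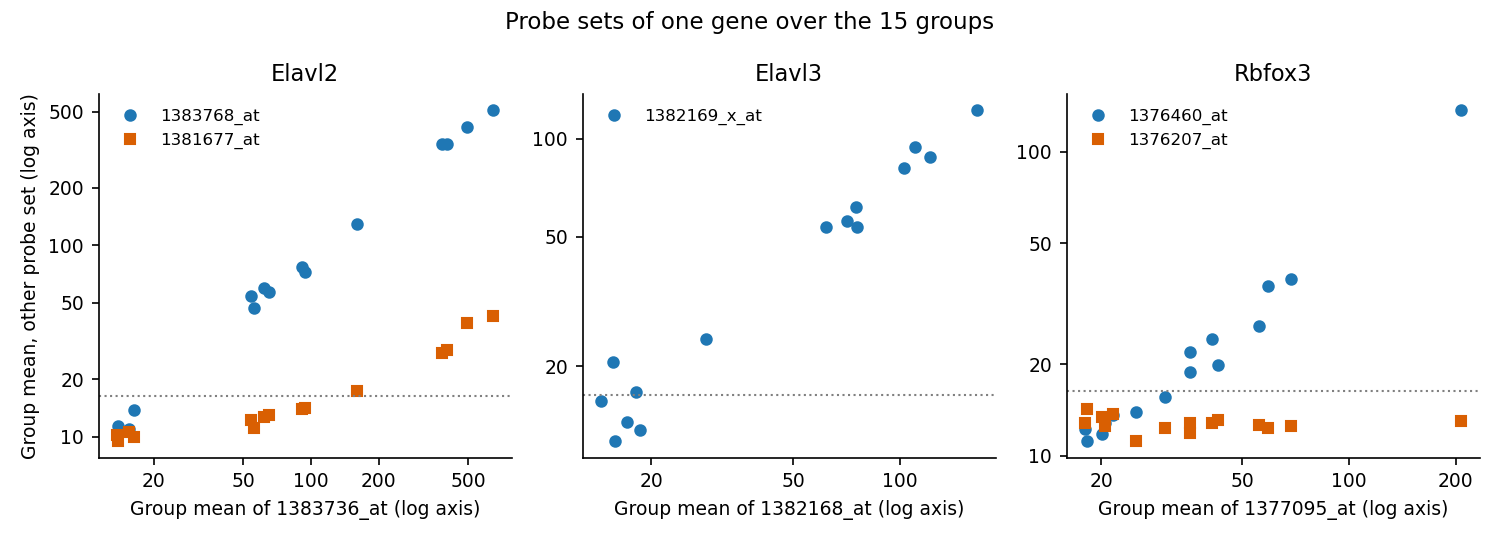
Group means (intensity, log axes) of the other probe sets of a gene against its brightest probe set, 1 point per group of clone and day; the dotted line is the dim limit. The second probe sets rise with the first, while the Rbfox3 probe set 1376207_at stays between 10 and 15 in all groups.

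Probe sets of a gene mostly moved together. Over the 15 groups the second Elavl2 probe set, 1383768_at, correlated with the first at r = 0.998, the second of Elavl3 at 0.986 and the second of Rbfox3 at 0.986. The third of Elavl2, 1381677_at, followed at 0.948 but was above the dim limit in 5 groups only. The third of Rbfox3, 1376207_at, read 10.7 to 15.1 on all arrays and did not follow (r = -0.139). The second of Rbfox3 was above the limit in 8 groups.

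**Figure D4:**
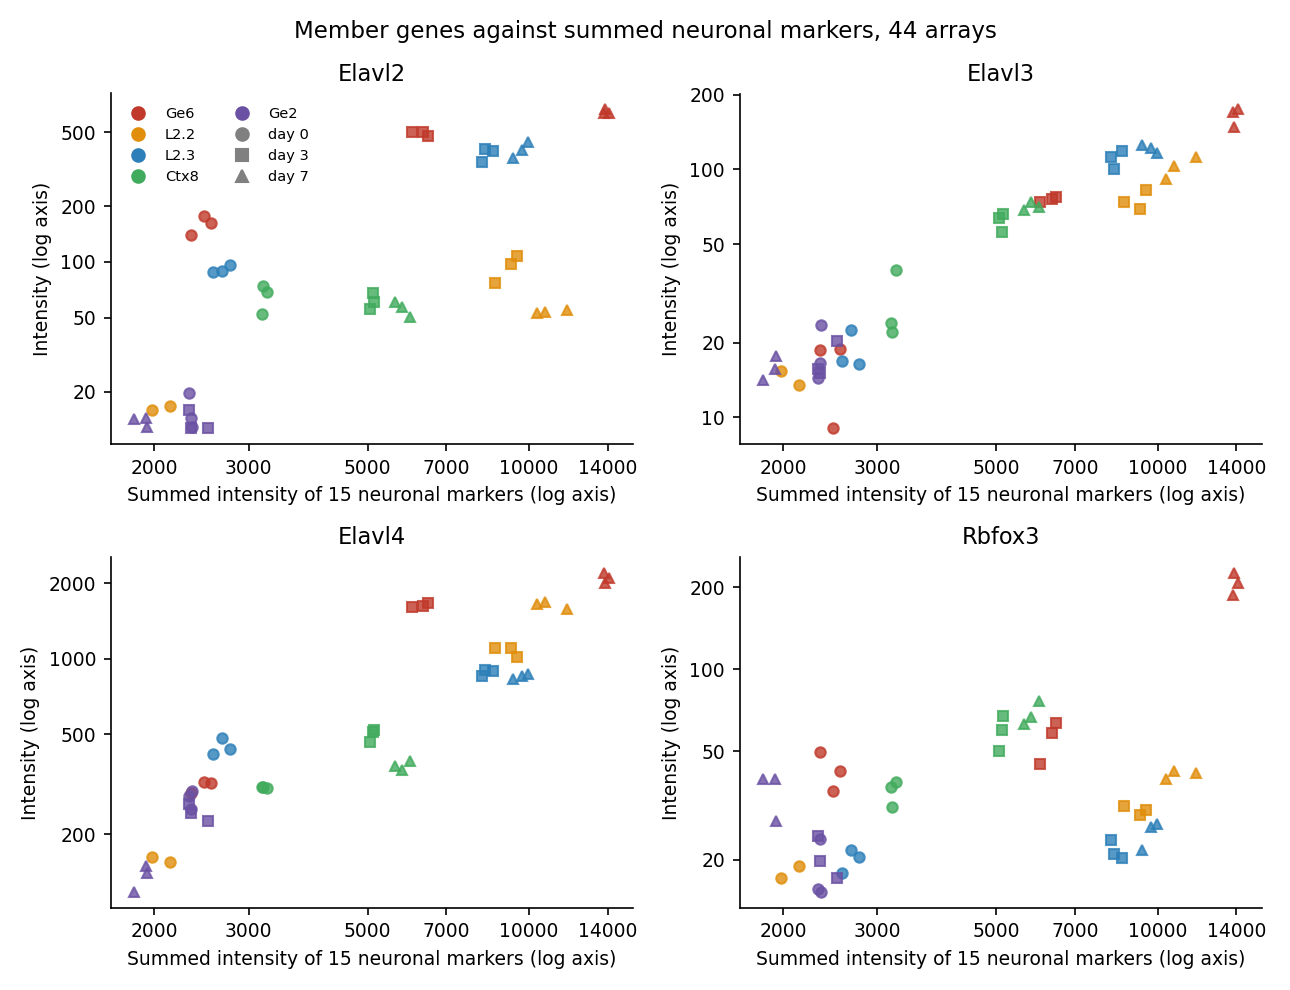
Intensity of each gene against the summed intensity of 15 neuronal markers (both log axes), 1 point per array, coloured by clone and shaped by day. Elavl3 lies along 1 band, while Elavl2 and Elavl4 split by clone. Elavl4 is 1611 to 1672 in Ge6 at day 3, at marker sums of 6037 to 6466. In Ctx8 at day 7 it is 360 to 393, at sums of 5622 to 5989. In Rbfox3 the Ge2 cultures of day 7 rise at the left edge, where the marker sum is lowest.

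The members were set beside 15 general neuronal markers. At day 7, 15 of them were called higher in Ge6, 15 in L2.2, 13 in L2.3, 11 in Ctx8 and 2 in Ge2. The shares of all probe sets called higher were 25.7%, 20%, 19.2%, 23.5% and 26.9% in the same order of clones. The marker sum went from 2346 to 2551 at day 0 to 13803 to 14115 at day 7 in Ge6, from 1983 to 2138 to 10332 to 11767 in L2.2, and from 2580.2 to 2771 to 9345 to 9969 in L2.3. In Ctx8 it went from 3182 to 3242 to 5622 to 5989, and in Ge2 from 2328 to 2357 to 1838 to 1940.0. Over the 44 arrays, log2 Elavl3 correlated with the log2 sum at r = 0.966, Elavl4 at 0.912, Elavl2 at 0.712 and Rbfox3 at 0.507, as descriptions over arrays that share clones and days. Within Ge2 (9 arrays) Rbfox3 had r = -0.869 and Elavl4 0.915. Within Ge6, L2.2, L2.3 and Ctx8 Rbfox3 had 0.902, 0.945, 0.631 and 0.955.

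Markers of other cells also moved with the groups. Astrocyte markers at day 7 summed to 2577 to 2793 in Ge6, 6606 to 9394 in L2.2, 16955 to 23969 in L2.3 and 23084 to 23942 in Ctx8. Oligodendrocyte markers in Ctx8 at day 7 summed to 11143 to 11857.5, against 690.5 to 759 in Ge6. Of 6 microglia markers, 4 to 6 were dim in every group. The 8 cell cycle markers fell in sum from 13746 to 13972 at day 0 to 1537 to 1998 at day 7 in Ge2, and from 13635 to 13691 to 6247 to 6472 in Ge6. The part of cell composition in the member levels was not tested.

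Among the members, Elavl3 and Elavl4 were most alike over the 15 group means (r = 0.874), followed by Elavl2 with Elavl4 (0.788) and with Elavl3 (0.726). Rbfox3 correlated less, between 0.484 and 0.545. By the same measure over 3010 genes that varied enough, the genes nearest Elavl3 were Nacad (0.980), Ttc9b (0.970), Stmn4 (0.966), Dcx (0.960) and Mllt11 (0.960). Dcx and Stmn4 encode proteins that act on neuronal microtubules. Nacad rose from 19.1 ± 4.2 to 318 ± 13 (SD, n = 3) in Ge6. The genes nearest Elavl4 were Ube2d1 (0.960), Etv1 (0.934), Akap6 (0.926), Serf1 (0.925) and Tmem131l (0.924). Those nearest Elavl2 were Pou3f4 (0.937), a POU factor of the ventral forebrain, then Gpsm1 (0.908), Slc6a15 (0.907), Kif3c (0.874) and Coro1a (0.860).

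Rbfox3 had Erbb4 (0.910), the neuregulin receptor of interneurons, then Fam234b (0.901), Cdk17 (0.887), Prkar1b (0.877) and Epb41l1 (0.868). Prkar1b, a regulatory subunit of protein kinase A, also had its larger step after day 3 in Ge6, with 19.1 ± 3.9 at day 0, 31.9 ± 8.2 at day 3 and 384 ± 53 at day 7 (SD, n = 3). With Spearman's rho in place of Pearson's r, 4 of these 5 neighbours remained for Elavl2, 2 for Elavl4, and 1 each for Elavl3 and Rbfox3.

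**Figure D5:**
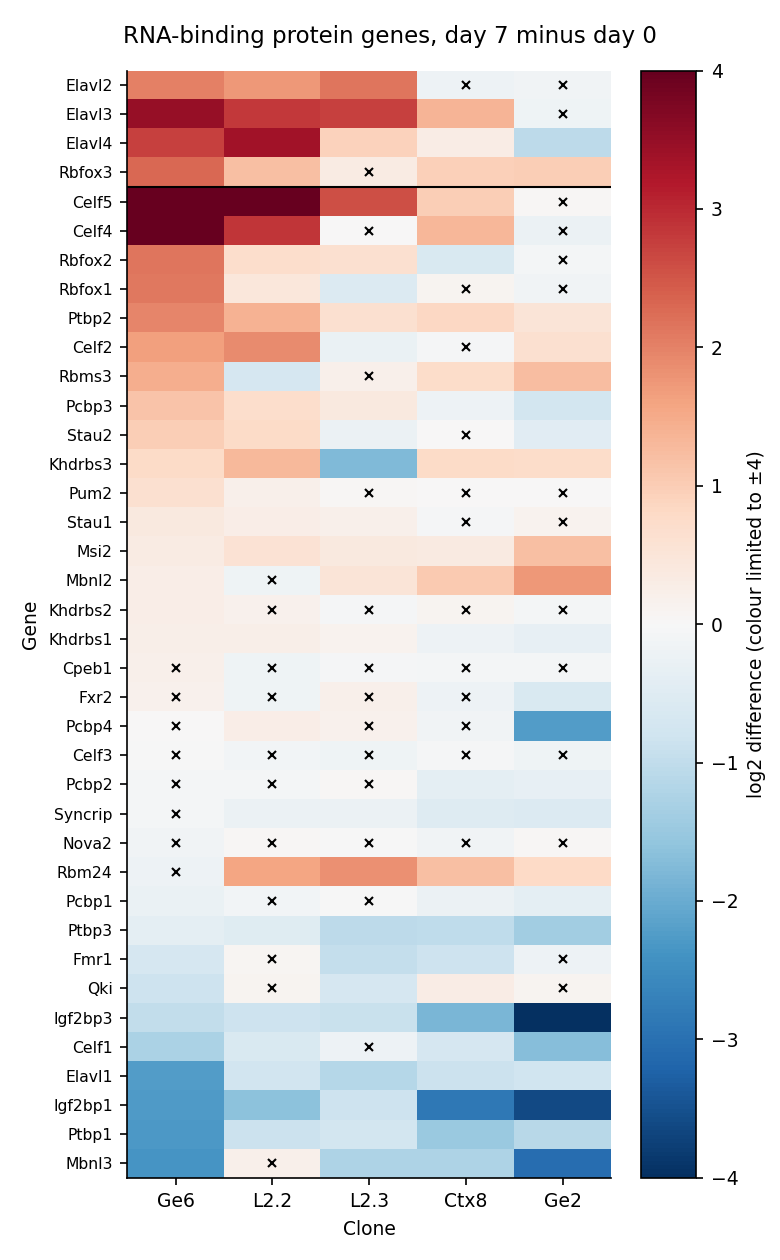
Change from day 0 to day 7 (log2, colour limited to ±4) of the 4 member genes, above the line, and 34 other RNA-binding protein genes in the 5 clones; a cross marks an adjusted p of 0.05 or more. Celf5 passes the colour limit in Ge6 and L2.2 and Celf4 in Ge6, and Ptbp1, Elavl1 and Igf2bp1 are blue in all 5 clones.

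The paralogs and partners of the members changed as well, from day 0 to day 7. Ptbp1, a splicing repressor that neurons switch off, fell there from 1339 to 276, a difference of -2.29 ± 0.07 (adjusted p = 4.3e-25), and the other 4 clones had called differences from -0.74 to -1.49. The Ge6 fall was larger than each of those (differences from -0.80 to -1.54, highest adjusted p = 3.25e-08). Ptbp2, its neural paralog, rose from 57.3 to 220.4 in Ge6, by 1.95 ± 0.10, and by 0.53 in Ge2 to 1.39 in L2.2. Rbfox2 rose from 117 to 511 in Ge6 (2.13 ± 0.07), rose in L2.2 and L2.3 by 0.69 and 0.65, fell in Ctx8 (-0.60), and had -0.07 in Ge2 (adjusted p = 0.458). A second, dim Rbfox2 probe set had -0.01 in Ge6 (adjusted p = 0.933).

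Rbfox1 rose from 10.6 to 45.9 in Ge6 (2.11 ± 0.12) and fell in L2.3 (-0.54). Of its other 5 probe sets, 2 also rose in Ge6 (0.92 and 1.49) and the other 3 were not called there. Elavl1 (HuR) fell by its brightest probe set in all clones, from 1298 to 276 in Ge6 (-2.23 ± 0.05). Its probe set 1391743_at had -0.10 ± 0.08 in Ge6 (adjusted p = 0.272) and -0.25 to -0.56 in the others, so the probe sets disagree on the size of the fall. Nova2, the paralog of Nova1, was dim, and no change at day 7 was called by either probe set in any clone.

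Of 47 listed neural RNA-binding proteins, 34 were measured. In Ge6 16 were higher and 10 lower at day 7 (median 0.19, against -0.06 over all genes, of which 23.7% were higher and 34.6% lower). In L2.2 15 were higher and 8 lower (median 0.14), in L2.3 9 and 13 (-0.03), in Ctx8 9 and 14 (-0.12), and in Ge2 7 and 15 (-0.18). The medians over all genes in these 4 clones were -0.07, -0.05, -0.06 and -0.06. Of all genes, 21% to 26.8% were higher there and 26.1% to 33% lower. With arrays shifted to one median, the counts became 13 and 13 in Ge6, 11 and 13 in L2.2, 7 and 15 in L2.3, 8 and 21 in Ctx8 and 7 and 23 in Ge2. Under the same shift 19.4%, 17%, 17.7%, 19.6% and 22.8% of all genes were higher in these clones and 48.6%, 40.7%, 38.6%, 49.8% and 47.4% lower. Celf5, a splicing and stability factor, rose from 10.6 to 925 in Ge6 (6.45 ± 0.13), from 12.5 to 263 in L2.2 and from 11.01 to 65.3 in L2.3. Its relative Celf4 rose from 13.4 to 354 in Ge6. Igf2bp1, a fetal mRNA-binding protein, fell in Ge6 from 178 to 36.9 and in Ge2 from 202 to 16.5. Mbnl2, a splicing factor of maturing tissue, rose in Ge2 (1.75) and Ctx8 (1.06).

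Of 14 listed mRNAs bound by neuronal ELAVL proteins, 11 were measured. At day 7 6 were higher and 3 lower in Ge6 (median 0.48), 9 and 1 in L2.2 (0.78), and 5 and 4 in L2.3 (0.13). In Ctx8 6 were higher and 1 lower (0.54), and in Ge2 4 and 2 (-0.01), beside the same medians over all genes. Called higher and lower over all probe sets were 25.7% and 28.0% in Ge6, 20% and 24.1% in L2.2, and 19.2% and 22.7% in L2.3. These shares were 23.5% and 25.3% in Ctx8 and 26.9% and 27.5% in Ge2. The count lower in Ge6 and both counts in Ge2 are near those shares. The list counts 1 probe set per gene, and the shares over all genes are given with the next list. Mapt, which encodes tau, rose from 15.05 to 2382 in Ge6 (7.31 ± 0.14) and had 16.2 and 12.2 in Ge2. Gap43, a growth cone protein, rose from 41.7 to 746 in Ge6 and from 195 to 1370.4 in Ctx8. Both are also among the neuronal markers. Cdkn1a, the p21 inhibitor of cell cycle kinases, fell in all 5 clones, with differences from -0.98 in Ge6 to -2.59 in Ge2. Nrn1, a neurite growth factor, fell in Ge6 (-3.49) and rose in Ge2 (1.86).

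Of 10 listed splicing targets of NOVA or RBFOX proteins, 9 were measured, as whole-gene levels and not as isoforms. In Ge6 6 were higher and 1 lower at day 7 (median 0.74), in L2.2 4 and 0 (0.21), in L2.3 2 and 3 (0.08), in Ctx8 4 and 2 (0.09), and in Ge2 3 and 3 (0.02). Of all genes, 23.7% were higher and 34.6% lower in Ge6, 21% and 29.6% in L2.2, 21.7% and 26.1% in L2.3, 24.7% and 30.5% in Ctx8, and 26.8% and 33% in Ge2, so the counts in L2.3 and Ge2 are near those shares. The median shift made the list counts 6 and 3 in Ge6, 2 and 2 in L2.2 and 3 and 3 in Ctx8. Snap25, a vesicle fusion protein, rose in Ge6 (4.64), L2.2 (4.14), L2.3 (3.21) and Ctx8 (1.65), and had -0.04 in Ge2 (adjusted p = 0.849). Dab1, the adaptor of the reelin receptors, fell in L2.3 (-3.09) and Ctx8 (-3.08). Grin1, an NMDA receptor subunit, rose in Ge6 (1.76).

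Regulators of neuronal genes were counted last, against the same shares over all genes, which in Ge6 were 23.7% higher and 34.6% lower. Of 13 neurogenic transcription factors, 8 were measured, and at day 7 4 were higher in Ge6 (median 0.56), 6 in L2.2 (1.21), 5 in L2.3 (1.33), 1 in Ctx8 (0.09) and 1 in Ge2 (-0.02). In Ctx8 and Ge2 1 was lower, Sox11 in both. Myt1l rose in Ge6 (5.23), L2.2 (2.86) and L2.3 (2.07). Neurod1 rose in L2.3 (4.69) and L2.2 (1.97), and had -0.07 in Ge6 (adjusted p = 0.704). Of 10 repressors of neuronal genes, 9 were measured, with 2 higher and 4 lower in Ge6 (median -0.14), 3 and 5 in L2.2 (-0.45), 6 and 2 in L2.3 (0.85), 4 and 3 in Ctx8 (0.04) and 4 and 1 in Ge2 (0.12). The Ge6 count of repressors is near the shares of all genes. Hey1 rose in all 5 clones (1.07 to 3.04), Id3 rose in Ctx8 (4.24) and fell in Ge6 (-0.90), and Id2 rose in Ge2 (4.35). Rest itself was dim in L2.3 at days 3 and 7, with 18.9 at day 0 and 14.7 at day 7 there. Its mean was above the dim limit in every other group.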

How the data were processed

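Each of 44 cultures was hybridised to 1 Affymetrix array. Values deposited by the authors were intensities, 1 for each probe set on each array, linear and from 6.391 to 12734.5, made with GCOS and RMA per the submitters' processing notes. The sources used here give no versions, scan dates or batches. RMA scales arrays to each other, so a change in total RNA per cell would not show. Array medians were 24.198 to 28.918, and log2 was taken without a pseudocount.

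Genes came from the platform annotation: 17547 probe sets named 1 gene, 213 several and 6423 none. For 17450 the symbol was taken from RefSeq by gene ID, whether or not it differed from the annotation. The probe set with the highest mean stood for its gene.

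A mean for each of 15 groups was fitted with limma 3.58.1 in R 4.3.3 (lmFit, contrasts.fit and eBayes; 29 residual degrees of freedom, median residual SD 0.128), two-sided, with Benjamini-Hochberg adjustment over 24183 probe sets per comparison. The fit was tested on simulated data. Arrays of 1 group correlated at 0.992 to 0.998, and no arrays were identical. Member genes, lists and tests were chosen with earlier results of these data known. From each list the text takes called genes with the largest rises and falls, bright genes that did not pass, and named paralogs. The 5 genes nearest each member were those with the highest Pearson r of group means, among genes spanning at least 2 in log2. Alternatives covered quantile normalization, a shift to one median, a pseudocount of 16, dim probe sets left out, 1 probe set per gene, array weights, a variance trend, the replicate block, only the groups compared, and each replicate left out.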

Additional observations from a re-analysis of the deposited data

Results flagged for a closer look

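The changes from day 0 differed between the 5 clones for each of the 4 genes. At day 3 the F test gave adjusted p = 2.02e-16 for Elavl2, 1.58e-10 for Elavl3, 3.91e-23 for Elavl4 and 0.0296 for Rbfox3. The Rbfox3 value rose to between 0.0535 and 0.067 when any 1 of Ctx8 day 0 replicate 2, Ctx8 day 3 replicate 3, L2.2 day 0 replicate 1, L2.3 day 0 replicate 1 or L2.3 day 3 replicate 1 was left out. At day 7 the F test gave 3.12e-16 for Elavl2, 1.39e-13 for Elavl3, 6.06e-28 for Elavl4 and 2.37e-08 for Rbfox3. Over all probe sets 60.7% passed at day 3 and 65% at day 7.

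The day 7 change of Ge6 minus that of a single other clone was tested for 4 genes against each other clone and passed in 13 of the comparisons. Over all probe sets 36.8% passed against L2.2, 44.5% against L2.3, 43.3% against Ctx8 and 45.9% against Ge2. Against L2.2 the difference was -0.62 for Elavl4 and 1.10 for Rbfox3, a count near the share of all probe sets. Against L2.3 it was 0.76 for Elavl3, 1.81 for Elavl4 and 1.97 for Rbfox3. Against Ctx8 it was 2.23 for Elavl2, 2.11 for Elavl3, 2.46 for Elavl4 and 1.34 for Rbfox3. Against Ge2 it was 2.16 for Elavl2, 3.65 for Elavl3, 3.78 for Elavl4 and 1.32 for Rbfox3. The Elavl3 difference from L2.3 depended on single cultures, as given above. All of these share the Ge6 cultures, and the day 0 levels of Elavl3 in them are near background.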

How the results depend on the processing

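Of 204 results for single member genes, the call was the same in 202 with 1 probe set per gene, 202 with array weights, 202 without dim probe sets, 201 with a variance trend and robust estimation, 198 with quantile normalization, 197 with log2 of value + 16, 195 with each array shifted to one median and 194 with only the groups compared. No alternative reversed a called direction. The replicate numbers did not pair the cultures: deviations of same-numbered arrays correlated between -0.16 and 0.15 (median 0.009). With the replicate block 203 results had the same outcome, called or not called. Rbfox3 in L2.2 then passed from day 3 to day 7, so the count of genes higher went from 1 to 2. That count was also 2 with the median shift, without dim probe sets, with 1 probe set per gene, with array weights or with the variance trend, and 3 with log2 of value + 16 or only the groups compared, and it was 1 to 2 with single replicates left out. Genes lower in Ctx8 at day 7 went from 0 to 1 (Elavl2) with quantile normalization or the median shift, and were 0 to 1 with replicates left out. Genes lower in Ge2 at day 3 went from 1 to 0 with quantile normalization or only the groups compared, to 2 with the median shift, and were 0 to 1 with replicates left out; genes higher there were 0 to 1. Genes lower in Ge2 at day 7 went from 1 to 2 with the median shift. The median shift moved the median of all genes at day 7 by between -0.105 and -0.164. The causes were not tested. Elavl2 in Ge2 and in L2.2 at day 0, Elavl3 at day 0 and Rbfox3 in L2.2, L2.3 and Ge2 lie near the dim limit. There, signal over background limits what a fold can show. Leaving out each replicate in turn left the outcome, called or not called, the same 8911 times. It made 28 results newly pass and lost 37 calls.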
